A study of Mus musculus with 6 samples.

Results

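Pdk4, Acot1, Acot2, Ucp2, Ucp3, Angptl4, Plin2 and Plin5 are genes of lipid handling that fatty acids switch on in heart muscle through the peroxisome proliferator-activated receptors (PPARs). The 8 genes were taken by name from a table of 17121 genes, and all 8 had enough reads to be tested among 13040 genes. RNA of the left ventricle was sequenced from 3 littermate control (LC) mice and 3 CMNKO mice, all 2 months old, with 1 library per mouse. CMNKO mice carry floxed NCoR1 alleles and a Cre recombinase driven by the α-myosin heavy chain promoter, which is active in cardiomyocytes, so the other cells of the ventricle still hold an intact gene. Both groups are littermates, and whether the LC mice of this experiment carried Cre is not stated. The mice keep the numbers of their labels. Those of the control group are LC 15, LC 25 and LC 26, and those of the knockout group are CMNKO 16, CMNKO 17 and CMNKO 18.

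PPARα, PPARβ/δ and PPARγ are nuclear receptors that pair with a retinoid X receptor (RXR) and sit on repeats of the letters AGGTCA near their target genes. Fatty acids bound to the receptor recruit coactivators. In the absence of such a ligand, corepressor complexes built on NCoR1 can hold the same genes down. In the heart, these targets include genes for the choice between glucose and fat as fuel, for the handling of acyl-CoA inside mitochondria and in the cytosol, for lipid droplets, and for a secreted inhibitor of lipoprotein lipase.

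Levels are given as CPM, the counts of a gene per 1000000 counts of its library after TMM scaling. Differences between CMNKO and LC were tested in edgeR by quasi-likelihood, which sets them against the spread between mice within the groups. The p-values were adjusted over all 13040 genes after Benjamini and Hochberg and read at 0.05. Library totals ran from 6319488 to 8752609 counts. LC 25 and LC 26 stood apart from the other 4 libraries along the first principal component, which held 48.7% of the variance. The share of the 13 mitochondrially encoded mRNAs was 34.9% (LC 25) and 31.5% (LC 26), compared with 25.6% to 26.9% in the others. These 2 libraries also carry later numbers in the labels, and a fit with this series of numbers as a further term leaves LC 15 as the only control that shares a series with the CMNKO mice. The results are therefore given with this term as well. The summed level of 8 cardiomyocyte markers lay between 60371 and 73884 CPM in LC and between 62889 and 69156 CPM in CMNKO. None of the 8 passed the edgeR test. Tnnt2, Tnni3 and Pln had every CMNKO mouse below every LC mouse, with log2 fold changes of -0.58, -0.41 and -0.41. Ryr2 had every CMNKO mouse above every LC mouse, at 0.20, and 3 of the 8 fold changes were positive. Over all genes tested, 12.3% were apart downward and 11.2% upward. Tnnt2, Tnni3 and Pln were also lower at an unadjusted p under 0.05 in edgeR, as were 8.8% of all genes tested. DESeq2 called Tnnt2 lower (adjusted p = 0.00541). The part of the cardiomyocyte share in the results was not tested. The atrial marker Myl7 had at most 1 count in any library. Myl4, a further atrial marker, had 9, 34 and 33 counts in LC 15, LC 25 and LC 26. In CMNKO 16, CMNKO 17 and CMNKO 18 it had 26, 16 and 22 counts. Its log2 fold change was -0.50 (edgeR adjusted p = 0.512) and 0.91 with the series term (adjusted p = 0.729).

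Ncor1 itself was at 111, 102 and 90.7 CPM in LC 15, LC 25 and LC 26 and at 50.5, 51.3 and 42.4 CPM in CMNKO 16, CMNKO 17 and CMNKO 18. The groups did not overlap, and the log2 fold change was -1.07 (SE 0.13, edgeR adjusted p = 0.00845). With the series term it was -1.20 (adjusted p = 0.0158). Without CMNKO 16, CMNKO 17 or CMNKO 18 the adjusted p was 0.0862, 0.0759 or 0.0536, at log2 fold changes of -1.11, -1.12 and -0.99.

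Of the 8 lipid-response genes, Pdk4 rose in CMNKO hearts and Acot1 fell, and the other 6 did not pass the test. Over all genes tested, 0.268% rose and 0.337% fell. Without LC 15 edgeR called 3 of the 8 higher and 1 lower, among 1589 genes higher and 1035 lower of 13495 tested. That fit cannot tell genotype from library series, and this holds for every result given below without LC 15. Without LC 26 or any 1 CMNKO mouse edgeR called none of the 8. The mice of both groups were fully apart for Pdk4, Ucp2 and Ucp3, which were higher in CMNKO, and for Acot1, which was lower, so 3 of the 8 were apart upward and 1 downward. Such separation occurred upward in 11.2% and downward in 12.3% of all genes tested. Angptl4, Plin2, Plin5 and Acot2 overlapped between the groups. The median log2 fold change of the 8 genes was 0.35, and that of all genes tested was 0.0012. Of the 8 fold changes 4 were positive and 4 negative, where 6546 of all 13040 genes tested were positive. That share also stands behind the numbers of positive fold changes given for other gene lists. In the fit with the series term none of the 8 passed in either direction, where 0.0153% of all genes tested rose and 0.153% fell. At an unadjusted p under 0.05 this edgeR fit had 3 of the 8 higher and 3 lower, against 3.51% and 4.06% of all genes tested. The fit on genotype alone had 4 of the 8 higher and 1 lower at that unadjusted level, against 10.1% and 8.8% of all genes tested, and these shares also stand behind the unadjusted counts given for other gene lists. DESeq2, used as an alternative test, called Pdk4, Ucp2 and Ucp3 higher and Acot1 lower, and it called 1.83% of its 12024 genes higher and 1.22% lower. Limma-voom called the same 4 genes in the same directions, with 0.345% of all genes tested higher and 0.376% lower.

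**Figure D1:**
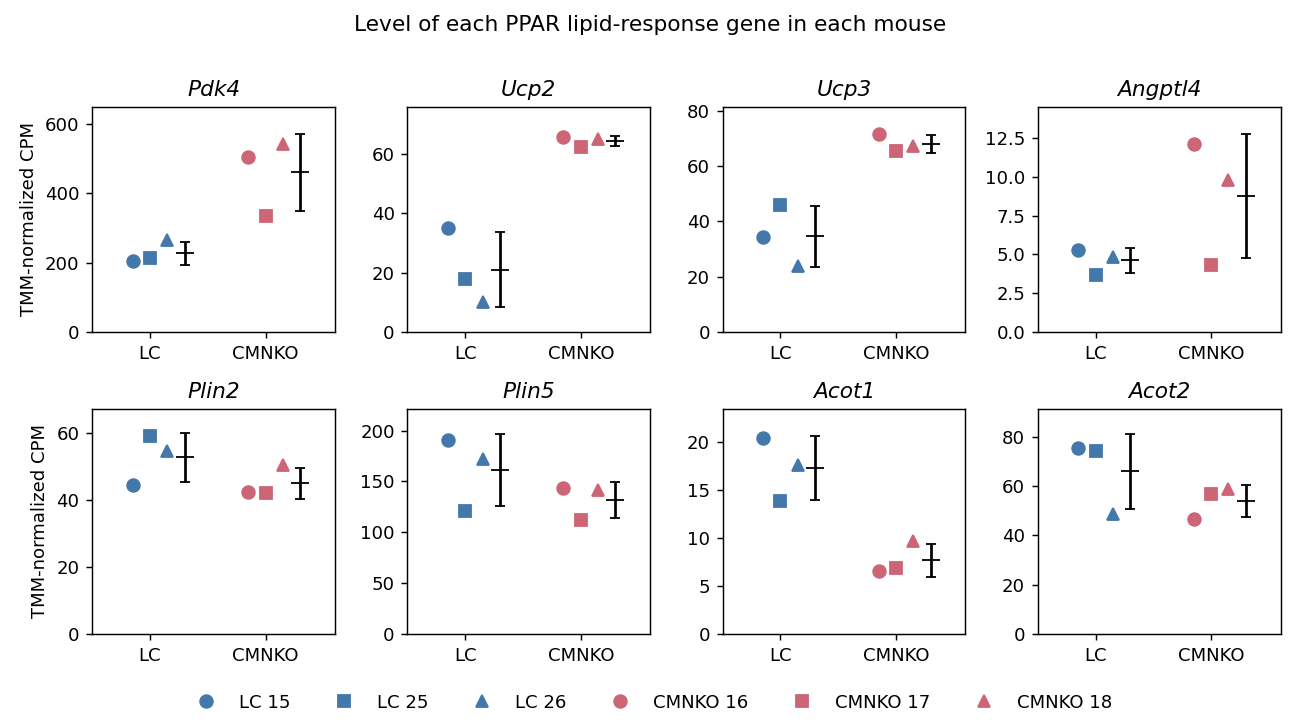
Level of each of the 8 genes in each of the 6 mice, in TMM-normalized CPM on a linear axis that starts at 0, with 1 panel per gene, where symbols are mice and bars are the mean ± SD of a group (n = 3). The CMNKO mice sit above every LC mouse for Pdk4, Ucp2 and Ucp3 and below every LC mouse for Acot1.

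Pdk4 encodes pyruvate dehydrogenase kinase 4, which phosphorylates and shuts the pyruvate dehydrogenase complex and so keeps glucose carbon out of oxidation when fat is plentiful. It was at 204 CPM in LC 15, 213 CPM in LC 25 and 265 CPM in LC 26. In CMNKO 16, CMNKO 17 and CMNKO 18 it was at 504, 334 and 544 CPM. CMNKO 17 was the lowest of its group and still exceeded the highest LC mouse. The mean was 227 ± 32.8 CPM (SD, n = 3) in LC and 460 ± 111 CPM (SD, n = 3) in CMNKO. The log2 fold change was 1.02 (SE 0.19, 95% interval 0.61 to 1.43, edgeR adjusted p = 0.0399). The rise was therefore close to the threshold. The call was lost without LC 25, LC 26, CMNKO 16, CMNKO 17 or CMNKO 18, with adjusted p of 0.132, 0.0701, 0.209, 0.0598 and 0.141, and with the series term (adjusted p = 0.134), while the log2 fold change stayed between 0.88 and 1.26 over all 16 alternatives.

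Pyruvate dehydrogenase is controlled by further kinases and by phosphatases that undo their work. Among 11 other genes of this system, none rose and 1 fell. That gene was Pdk1, another kinase of the complex, with a log2 fold change of -0.71 (edgeR adjusted p = 0.0376). It went from 185 ± 17.3 CPM (SD, n = 3) in LC to 113 ± 9.84 CPM (SD, n = 3) in CMNKO, so Pdk1 and Pdk4 changed in opposite directions. With the series term the Pdk1 value was -0.55 (adjusted p = 0.230), and without LC 25, LC 26, CMNKO 16, CMNKO 17 or CMNKO 18 the adjusted p was 0.128, 0.115, 0.216, 0.198 or 0.106. The kinase gene Pdk3 had 3 to 5 counts per LC mouse and 11 to 19 per CMNKO mouse, with a log2 fold change of 1.41 (adjusted p = 0.127). The phosphatase gene Pdp2 had 0.56 (adjusted p = 0.151). The median of the 11 genes was -0.030, and DESeq2 and limma-voom called Pdk1 alone. EdgeR had 3 of them higher and 4 lower at an unadjusted p under 0.05, where all genes tested had 10.1% and 8.8%.

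Ucp2 and Ucp3 encode carriers of the inner mitochondrial membrane that are relatives of the uncoupling protein of brown fat. Ucp3 is found mainly in skeletal muscle, heart and brown fat, whereas Ucp2 is made in many cell types, macrophages included. Ucp2 was at 34.9 CPM in LC 15, 17.7 CPM in LC 25 and 10.2 CPM in LC 26. The 3 CMNKO mice lay within a narrow range of 62.3 to 65.7 CPM. The means were 21.0 ± 12.7 CPM (SD, n = 3) and 64.3 ± 1.75 CPM (SD, n = 3). Nearly all of the spread within the groups was thus between LC mice. The log2 fold change of 1.63 (SE 0.32, 95% interval 0.92 to 2.33) was the largest in size of the 8 and missed the threshold with an edgeR adjusted p of 0.0515. It was 2.22 without LC 15 (adjusted p = 0.00011) and 0.88 with the series term (adjusted p = 0.211). LC 15 was above the mean of LC 25 and LC 26 by 1.36 on the log2 scale, so the size of the difference depended on which LC mice it was set against. DESeq2 gave an adjusted p of 0.0428.

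Lists of markers of other cell types differed in direction. The summed level of 6 macrophage markers was 234 to 258 CPM in LC and 273 to 397 CPM in CMNKO, with a median log2 fold change of 0.44. The 6 endothelial markers summed to 467 to 578 CPM in LC and to 656 to 748 CPM in CMNKO, with a median of 0.49. For 3 smooth muscle markers the sums were 81.3, 44.6 and 30.2 CPM in LC 15, LC 25 and LC 26. In CMNKO they were 71.1 to 101.7 CPM, with a median log2 fold change of 0.78. Sums of 6 fibroblast markers overlapped, at 481 to 578 CPM in LC and 487 to 802 CPM in CMNKO, with a median of 0.20. Those of 5 red blood cell markers were 316 to 461 CPM in LC and 284 to 320 CPM in CMNKO, with a median of -0.32. No gene of these lists passed the edgeR test. At an unadjusted p under 0.05 in edgeR, 10.1% of all genes tested were higher and 8.8% lower. Higher at that level were 3 macrophage, 4 endothelial and 2 smooth muscle markers and 1 fibroblast marker, and lower were 3 red blood cell markers. With the series term 1 macrophage marker and 2 endothelial markers were higher and none of these lists had a lower one, against 3.51% and 4.06% of all genes tested. The medians with this term were 0.27 (macrophage), 0.30 (endothelial), 0.13 (smooth muscle), 0.077 (fibroblast) and -0.047 (red blood cell). DESeq2 called the endothelial genes Cdh5, Kdr and Tie1 higher. The part of these cell types in the Ucp2 values was not tested, and in a bulk tissue the number of cells of a type and their RNA per cell cannot be told apart. The exons of Ucp2 overlap those of Dnajb13 on the opposite strand in the GENCODE vM21 annotation. No source used here says whether the counting used strand, so that reads of both genes may be joined under Ucp2.

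Ucp3 was at 34.2, 45.9 and 23.9 CPM in LC 15, LC 25 and LC 26 and at 71.6, 65.3 and 67.3 CPM in CMNKO 16, CMNKO 17 and CMNKO 18. Ucp3 was apart between the groups, with means of 34.6 ± 11.005 CPM (SD, n = 3) and 68.05 ± 3.23 CPM (SD, n = 3). Its log2 fold change was 0.98 (SE 0.20, 95% interval 0.54 to 1.42) and missed the threshold with an edgeR adjusted p of 0.0572. It was nearly the same with the series term, at 0.99 (adjusted p = 0.271). DESeq2 gave an adjusted p of 0.00089, and edgeR called Ucp3 without LC 15 (adjusted p = 0.00916) or LC 25 (0.0258). As for Ucp2, the CMNKO mice varied less than the LC mice. The ratio of Ucp2 to Ucp3 within a mouse, which no library scaling can move, had a log2 mean of -0.85 ± 0.77 (SD, n = 3) in LC and -0.082 ± 0.037 (SD, n = 3) in CMNKO. Ucp2 took 47.9% to 49.0% of the counts of the pair in CMNKO and 50.6% in LC 15, but 27.8% in LC 25 and 30.0% in LC 26. The difference in log2 ratio was 0.77 (exact permutation test, two-sided, p = 0.4, adjusted over 3 ratios 0.6). The smallest p that 3 mice against 3 allow is 0.1. LC 15 thus resembled the CMNKO mice in this ratio and not in the level of either gene.

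The other carriers tested comprised 5 genes, among them the ADP/ATP carriers, which exchange nucleotides across the same membrane. None rose or fell in edgeR, DESeq2 or limma-voom, 1 was lower at an unadjusted p under 0.05, and the median log2 fold change was 0.15. The 3 with the smallest p were Slc25a27, an uncoupling protein relative of the brain, at -0.73 (edgeR adjusted p = 0.150), and the ADP/ATP carriers Slc25a4 at -0.27 and Slc25a5 at 0.15. Slc25a27 passed without LC 15 (-0.92, adjusted p = 0.0111) and was at -0.27 with the series term.

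Promoter sequences are shown for the 4 genes whose groups were apart and for Acot2, the close relative of Acot1. Each run is the 250 bases before a RefSeq start site in GRCm38.p6, written 5′ to 3′ on the strand of the gene, and capitals mark AGGTCA on either strand. Ucp3 lies on the plus strand with its window at chr7:100472741-100472990, and Ucp2 on the plus strand at chr7:100493108-100493357. Pdk4 lies on the minus strand at chr6:5496279-5496528. Acot2 and Acot1 lie on the plus strand at chr12:83987611-83987860 and chr12:84009252-84009501.
Ucp3 promoter: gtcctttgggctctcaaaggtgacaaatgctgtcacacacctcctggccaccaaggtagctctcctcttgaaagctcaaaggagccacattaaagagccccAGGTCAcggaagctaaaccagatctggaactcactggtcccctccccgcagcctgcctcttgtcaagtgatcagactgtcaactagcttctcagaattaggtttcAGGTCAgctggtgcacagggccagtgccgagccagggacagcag
Ucp2 promoter: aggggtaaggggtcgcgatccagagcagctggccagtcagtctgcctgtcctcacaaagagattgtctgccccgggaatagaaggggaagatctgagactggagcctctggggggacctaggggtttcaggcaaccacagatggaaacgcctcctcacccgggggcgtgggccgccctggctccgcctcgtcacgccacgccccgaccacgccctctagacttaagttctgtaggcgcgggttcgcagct
Pdk4 promoter: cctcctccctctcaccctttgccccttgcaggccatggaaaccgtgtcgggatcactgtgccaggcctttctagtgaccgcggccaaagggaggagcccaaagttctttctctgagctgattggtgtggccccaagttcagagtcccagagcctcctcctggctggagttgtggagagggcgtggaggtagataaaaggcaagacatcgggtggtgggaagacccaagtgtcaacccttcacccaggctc
Acot2 promoter: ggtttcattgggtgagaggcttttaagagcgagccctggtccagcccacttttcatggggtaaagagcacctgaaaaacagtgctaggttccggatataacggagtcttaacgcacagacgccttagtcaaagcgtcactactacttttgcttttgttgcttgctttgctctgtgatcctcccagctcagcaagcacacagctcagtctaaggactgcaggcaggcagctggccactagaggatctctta
Acot1 promoter: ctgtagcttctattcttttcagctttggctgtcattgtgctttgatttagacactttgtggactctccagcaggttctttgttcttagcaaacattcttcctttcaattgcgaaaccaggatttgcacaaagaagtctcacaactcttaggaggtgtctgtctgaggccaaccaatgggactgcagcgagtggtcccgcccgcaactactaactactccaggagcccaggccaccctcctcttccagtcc

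The promoter table matched 7 of the 8 genes, all but Angptl4, with 8 windows because Plin5 has 2. A half-site, AGGTCA or its complement TGACCT, stood in 3 of the 8 windows, against 14.0% of 32851 windows of the same length over all genes. Ucp3 had 2 of them, 149 and 44 bases before the start. Plin5 had 1 at 170 bases before the start, and Plin2 had 1 on the other strand at 218 bases before the start. The pair of half-sites that PPAR and RXR bind together, AGGTCA repeated with 1 base between (DR1), was searched on both strands with exact letters and stood in none of the 8 windows and in 11 of all 32851 (0.0335%). These matches are descriptions of letters only.

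Acot1 and Acot2 encode acyl-CoA thioesterases that cleave long-chain acyl-CoA to free fatty acid and coenzyme A, Acot1 in the cytosol and Acot2 in mitochondria. Acot1 was at 20.4 CPM in LC 15, 13.8 CPM in LC 25 and 17.6 CPM in LC 26. It was at 6.56, 6.85 and 9.67 CPM in CMNKO 16, CMNKO 17 and CMNKO 18. Every CMNKO mouse lay below every LC mouse. The means were 17.3 ± 3.31 CPM (SD, n = 3) and 7.69 ± 1.72 CPM (SD, n = 3), and Acot1 fell by 1.17 on the log2 scale (SE 0.21, 95% interval -1.64 to -0.70, edgeR adjusted p = 0.0399). The raw counts behind these levels were 86 to 134 in LC and 49 to 77 in CMNKO. The call was lost without LC 26, CMNKO 16, CMNKO 17 or CMNKO 18, with adjusted p of 0.119, 0.216, 0.217 and 0.0628, with library totals in place of TMM (0.0904) and with the series term (0.0540). The log2 fold change remained between -1.41 and -0.84 over all 16 alternatives.

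Acot2, the more abundant gene of the pair, was at 75.5, 74.2 and 48.5 CPM in LC 15, LC 25 and LC 26 and at 46.7, 56.9 and 58.6 CPM in CMNKO 16, CMNKO 17 and CMNKO 18. LC 26 lay among the CMNKO mice. Acot2 had a log2 fold change of -0.29 (SE 0.18, 95% interval -0.68 to 0.10, edgeR adjusted p = 0.389). Acot1 took 21.3%, 15.7% and 26.6% of the counts of the pair in LC 15, LC 25 and LC 26 and 12.3%, 10.7% and 14.2% in CMNKO 16, CMNKO 17 and CMNKO 18. The shares of the groups did not overlap. The log2 ratio of Acot1 to Acot2 was lower in CMNKO by 0.90 in the mean (-1.92 ± 0.48 against -2.83 ± 0.23, SD, n = 3 each, exact permutation test, two-sided, p = 0.1, which is the smallest it can give, adjusted over 3 ratios 0.3).

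The near identity of both genes limits these values. Their coding sequences, of 1260 bases in Acot1 and 1362 bases in Acot2, were 95.5% identical over 1239 aligned bases in GENCODE vM21, and both genes lie on chromosome 12. Of all windows of 50 bases along the transcripts, 23.7% of those of Acot1 also occurred in Acot2. The 50 bases were a chosen setting, not taken from the reads of these libraries, and longer windows would be shared less often. A read wholly within shared sequence cannot be assigned to either gene, and no source used here says how shared reads were counted. The longest stretch in common is shown because it spans 273 bases without a difference, from base 887 of the Acot1 coding sequence and base 1010 of that of Acot2.
Acot1 and Acot2 shared coding stretch: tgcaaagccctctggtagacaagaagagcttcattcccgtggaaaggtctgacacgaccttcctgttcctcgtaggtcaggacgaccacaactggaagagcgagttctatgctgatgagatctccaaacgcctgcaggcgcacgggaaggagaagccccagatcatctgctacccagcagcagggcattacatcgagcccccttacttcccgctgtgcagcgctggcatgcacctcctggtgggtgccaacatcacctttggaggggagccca

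By comparison, the coding sequences of Ucp2 and Ucp3 were 75.5% identical, with a longest common run of 24 bases and no window of 50 bases in common, and those of Plin2 and Plin5 were 63.8% identical. Reads shared by both genes of a pair are thus a limit for the thioesterases. Among 7 other acyl-CoA thioesterases tested none rose or fell in edgeR, DESeq2 or limma-voom, 1 was higher at an unadjusted p under 0.05 in edgeR, and the median log2 fold change was 0.00075. Acot11, Acot13 and Them4 had the smallest p, with log2 fold changes of 0.86, -0.26 and -0.12 (edgeR adjusted p = 0.218 for Acot11). Acot11 was at 1.46 without LC 15 (adjusted p = 0.00167), at 0.51 without LC 26 and at 0.10 with the series term. The sign of Them4 turned with library totals, with the series term and without LC 26.

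**Figure D2:**
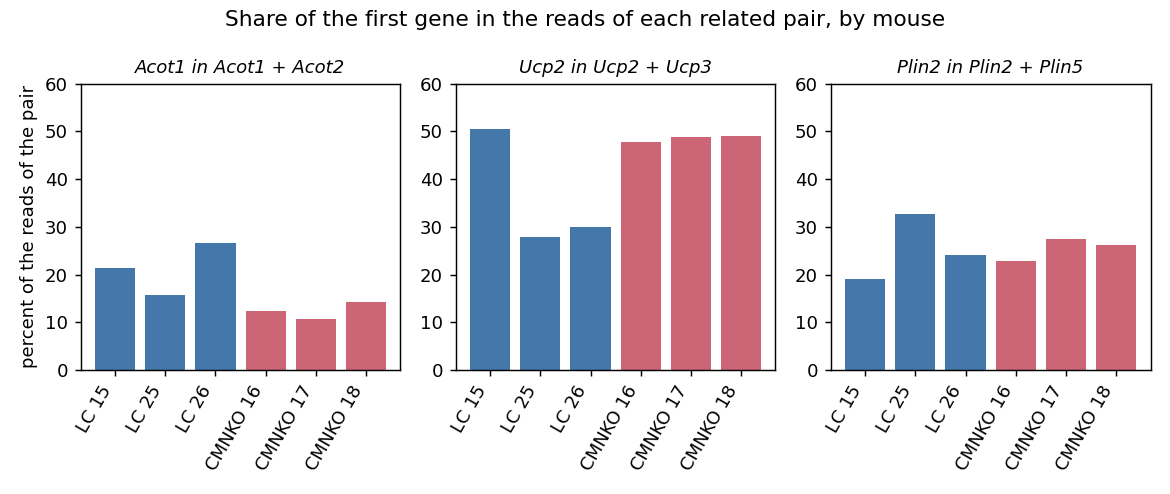
Share of Acot1 in the counts of Acot1 and Acot2, of Ucp2 in those of Ucp2 and Ucp3, and of Plin2 in those of Plin2 and Plin5, in percent, with 1 bar per mouse. The Acot1 share is 15.7% to 26.6% in LC and 10.7% to 14.2% in CMNKO, the Ucp2 share of LC 15 is near those of the CMNKO mice, and the Plin2 shares overlap.

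Angptl4 encodes a secreted inhibitor of lipoprotein lipase, the enzyme that frees fatty acids from circulating triglyceride at the capillary wall. It had the lowest counts of the 8 genes, 23 to 37 in LC and 31 to 109 in CMNKO. Its levels were 5.30, 3.70 and 4.85 CPM in LC 15, LC 25 and LC 26 and 12.1, 4.33 and 9.79 CPM in CMNKO 16, CMNKO 17 and CMNKO 18. CMNKO 17 lay among the LC mice, and the same mouse was the lowest of its group for Pdk4. The log2 fold change was 0.93 (SE 0.34, 95% interval 0.19 to 1.68, edgeR adjusted p = 0.185) and 0.74 with the series term (adjusted p = 0.795). The interval of the single gene excludes 0, and the call is missed once p-values are adjusted over all genes tested.

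Angptl4, Pdk4 and Plin2 are also made in fat cells. Transcripts of 6 adipocyte markers summed to 2.03 CPM in LC 15 and had no count in LC 25 and LC 26. The sums were 23.6, 10.6 and 1.00 CPM in CMNKO 16, CMNKO 17 and CMNKO 18. Car3 and Cfd held most of these reads, with 104 and 68 of the 212 in CMNKO 16. Neither Adipoq nor Plin1 was detected in any LC mouse or in CMNKO 18. Adipoq had 13 reads in CMNKO 16 and 7 in CMNKO 17, where Plin1 had 4 and 6. The part of fat cells in the levels of Angptl4, Pdk4 and Plin2 was not tested. Without CMNKO 16 and CMNKO 17, in a fit added after seeing the data, the log2 fold change of Pdk4 was 1.26. That value rests on CMNKO 18 alone, which is taken to vary like the LC mice, and is no test of the part of fat cells.

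None of 8 other genes of lipoprotein lipase and the ANGPTL family rose or fell in edgeR, and their median log2 fold change was 0.070. Unadjusted, 2 were higher and 1 lower at p under 0.05, DESeq2 called Angptl2 higher, and limma-voom called none. The ANGPTL genes Angptl2, Angptl6 and Angptl7 had the smallest p, with log2 fold changes of 0.89, -0.94 and 1.62 (edgeR adjusted p = 0.0830, 0.132 and 0.252). Angptl7 was at 3.68 without LC 15 (adjusted p = 0.00529), at 1.08 without LC 25 and at 0.24 with the series term. Angptl2 was at 1.18 without LC 15 (adjusted p = 0.00049) and at 0.44 with the series term. Lipoprotein lipase (Lpl) had -0.073.

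Plin2 and Plin5 coat lipid droplets. Plin2 is the common droplet coat of many tissues, whereas Plin5 belongs to tissues that burn fat and tethers droplets to mitochondria. Plin2 was at 44.6, 59.0 and 54.7 CPM in LC 15, LC 25 and LC 26 and at 42.5, 42.2 and 50.3 CPM in CMNKO 16, CMNKO 17 and CMNKO 18. Its log2 fold change was -0.23 (SE 0.15, 95% interval -0.55 to 0.09, edgeR adjusted p = 0.399), and it turned to 0.013 with the series term. Plin5 was at 190, 121 and 172 CPM in LC 15, LC 25 and LC 26 and at 143, 112 and 141 CPM in CMNKO 16, CMNKO 17 and CMNKO 18. In both groups the mouse with the lowest Plin5 level, LC 25 or CMNKO 17, had about the same level. The log2 fold change was -0.29 (SE 0.17, 95% interval -0.67 to 0.10, edgeR adjusted p = 0.379). The intervals of both genes exclude a rise to the size fitted for Pdk4. The log2 ratio of Plin2 to Plin5 differed by 0.047 (-1.60 ± 0.53 in LC, -1.55 ± 0.18 in CMNKO, SD, n = 3 each, exact permutation test, two-sided, p = 1), and this difference was negative without LC 15 or CMNKO 17.

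Of 12 further genes of droplet coats, lipases and triglyceride synthesis, none rose or fell in edgeR, with a median log2 fold change of 0.12. Unadjusted, 1 was higher and 1 lower at p under 0.05. The monoglyceride lipase gene Mgll came closest, with 73.7 ± 13.6 CPM (SD, n = 3) in LC, 124 ± 5.16 CPM (SD, n = 3) in CMNKO and a log2 fold change of 0.75 (edgeR adjusted p = 0.0501). DESeq2 and limma-voom called Mgll alone. G0s2, an inhibitor of the lipase ATGL, had -0.71 (adjusted p = 0.171). Pnpla2, which encodes that lipase, had 0.49 (adjusted p = 0.294) and turned to -0.046 with the series term. Without LC 15 all of these 3 genes passed (edgeR adjusted p = 0.00049 for Mgll, 0.0469 for G0s2 and 0.00438 for Pnpla2). That fit called 1589 genes higher and 1035 lower and cannot tell genotype from library series. Mgll was at 0.47 with the series term.

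**Figure D3:**
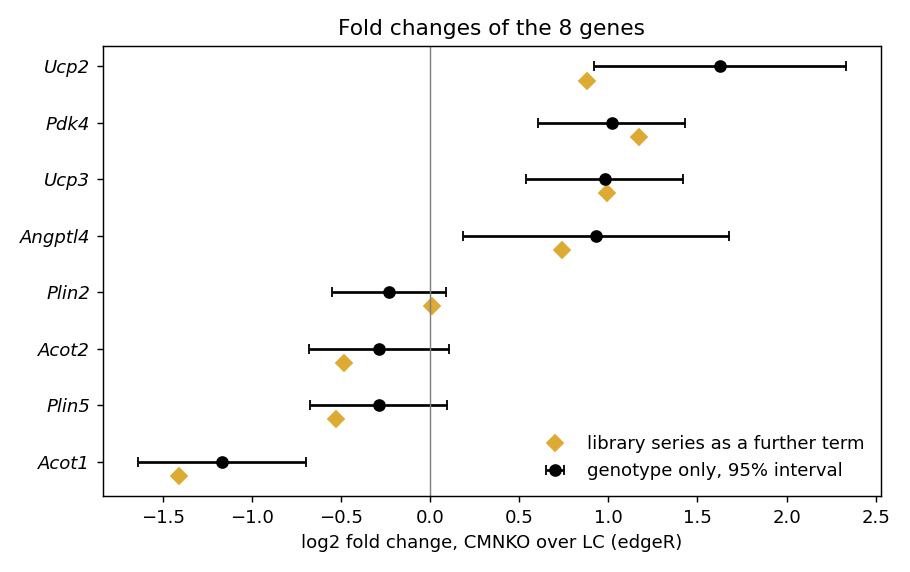
Log2 fold change of CMNKO over LC for each of the 8 genes in edgeR, where circles with bars are the fit on genotype with its 95% interval, and diamonds are the fit with the library series as a further term. The circles run from -1.17 for Acot1 to 1.63 for Ucp2, and the term moves Ucp2 most, to 0.88.

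The 8 genes also differed in how strongly they were expressed. On the scale of CPM per kilobase of the longest protein-coding transcript, the LC order was Plin5 at 81.2 ± 18.03, Pdk4 at 65.2 ± 9.42, Acot2 at 30.1 ± 6.93 and Plin2 at 28.0 ± 3.92, followed by Ucp3 at 14.1 ± 4.50, Acot1 at 7.61 ± 1.46, Ucp2 at 5.25 ± 3.18 and Angptl4 at 1.40 ± 0.25 (SD, n = 3). Neighbours in this order overlapped between mice for Plin5 and Pdk4, for Acot2 and Plin2, and for Acot1 and Ucp2. In CMNKO, Pdk4 stood first at 132 ± 31.9 CPM per kilobase and Plin5 next at 66.5 ± 8.88, and Ucp2 at 16.1 ± 0.44 stood above Acot1 at 3.39 ± 0.76 (SD, n = 3). Ucp3, Acot2 and Plin2 lay between 23.8 and 27.8 CPM per kilobase in the mean. The lengths depend on which transcript the heart makes, which was not measured here.

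The genes most like Pdk4 over the 6 libraries were Prrg3 (Pearson's r of log2 CPM 0.993), the mitochondrial carrier gene Slc25a25 (0.989) and Npdc1 (0.982), with log2 fold changes of 0.67, 0.71 and 0.34. Those most like Acot1 were the muscle gene Cmya5 (0.991), Nit2 (0.990) and Zfp407 (0.989), with -0.20, -0.29 and -0.12. None of these 6 genes passed the edgeR test (adjusted p of 0.104 to 0.694). The correlations are descriptions over 6 libraries in which the split into groups and that of LC 25 and LC 26 are shared by all genes.

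Of 26 other known PPAR targets of fatty acid uptake and oxidation that were tested, none rose and 2 fell, and 13 had all CMNKO mice below all LC mice against 1 with all above, where 12.3% and 11.2% of all genes tested were apart in these directions. The median log2 fold change was -0.23, and 4 of the 26 were positive. There were 1 higher and 11 lower at an unadjusted p under 0.05, against 10.1% and 8.8% of all genes tested, and DESeq2 and limma-voom called 5 and 3 genes, all lower. Ech1, an isomerase for unsaturated fatty acids, went from 1916 ± 164 to 1083 ± 85.3 CPM (SD, n = 3 each), a log2 fold change of -0.82 (edgeR adjusted p = 0.0251). Decr1, a reductase of the same branch of oxidation, went from 573 ± 24.9 to 364 ± 26.1 CPM (SD, n = 3 each), a log2 fold change of -0.65 (edgeR adjusted p = 0.0417). Acadm, the medium-chain acyl-CoA dehydrogenase, was at 1364 ± 90.8 CPM in LC and 862 ± 94.5 CPM in CMNKO (SD, n = 3 each), with a log2 fold change of -0.66 (edgeR adjusted p = 0.0572). Ech1 and Decr1 lost the call with the series term, at adjusted p of 0.159 and 0.197. With LC 25, LC 26, CMNKO 16, CMNKO 17 or CMNKO 18 left out, neither passed (adjusted p of 0.0715 to 0.249). Their log2 fold changes kept their sign in all these fits. Acot1, the thioesterase that fell, moved the same way as Ech1 and Decr1. Cyp4a10, Cyp4a14 and Fgf21 were also on the list and were not analysed here.

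**Figure D4:**
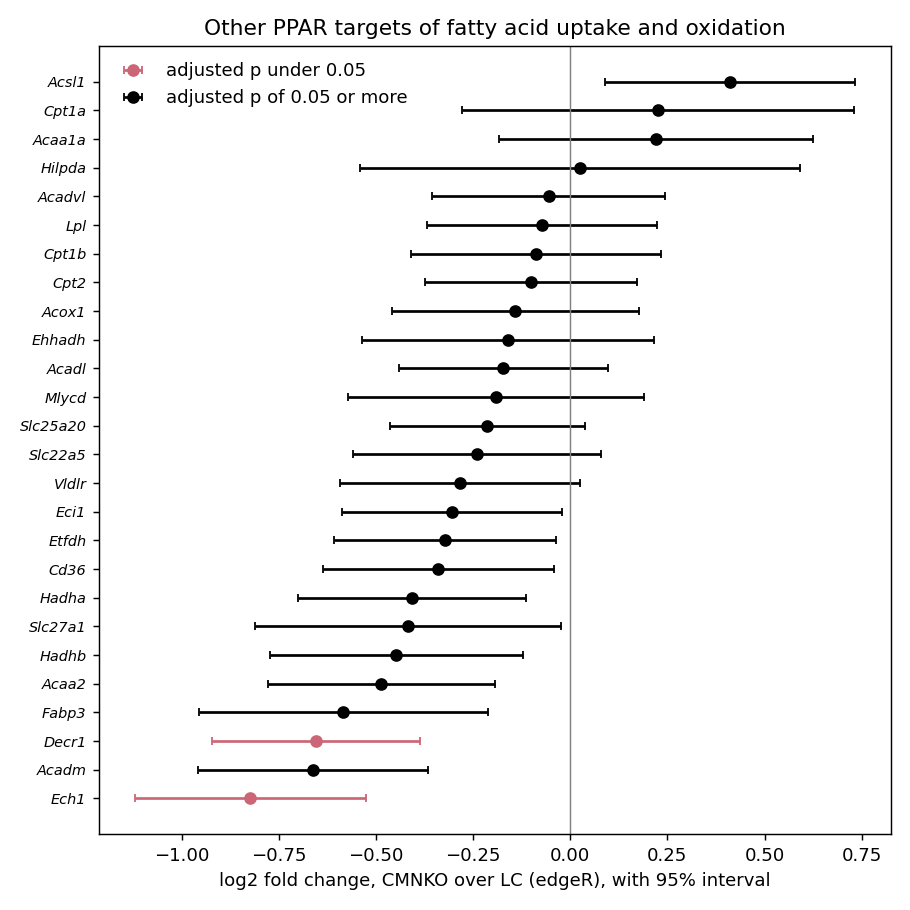
Log2 fold change of CMNKO over LC with its 95% interval in edgeR for the 26 other PPAR targets of fatty acid uptake and oxidation that were tested, sorted by size. The genes with an adjusted p under 0.05 are Ech1 and Decr1, both lower in CMNKO, and 4 of the 26 lie above 0.

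The receptors and their partners did not pass the test. None of 8 genes for PPARs, RXRs and the PGC-1 coactivators rose or fell in edgeR, DESeq2 or limma-voom, and their median log2 fold change was 0.0098. At an unadjusted p under 0.05, 1 was higher and 2 were lower in edgeR. Ppara, the main PPAR of heart muscle, was at 69.2 ± 6.06 CPM (SD, n = 3) in LC and 62.4 ± 1.62 CPM (SD, n = 3) in CMNKO. The smallest p belonged to the coactivator Ppargc1a at -0.66, to Ppard at 0.58 and to Rxrg at -0.38 (edgeR adjusted p = 0.150, 0.203 and 0.214). Without LC 15, Ppargc1a at -0.80 and Ppard at 0.80 passed (edgeR adjusted p = 0.0156 and 0.0165), in a fit that cannot tell genotype from library series. With the series term Ppargc1a and Ppard were at -0.35 and 0.19. Of 6 corepressor genes Ncor1 alone passed the test in edgeR, DESeq2 and limma-voom. Tbl1xr1, a subunit of the NCoR complexes, had a log2 fold change of 0.58 (edgeR adjusted p = 0.0939), and the corepressor gene Nrip1 had 0.58 (adjusted p = 0.162). Tbl1xr1 passed without LC 15 (adjusted p = 0.0247).

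Pdk4 and Angptl4 also respond to glucocorticoids and FoxO factors in muscle. Among 12 genes that respond to these signals none rose or fell in edgeR or limma-voom, and 10 of the 12 were positive with a median log2 fold change of 0.44. At an unadjusted p under 0.05, 4 were higher in edgeR, against 10.1% of all genes tested, and DESeq2 called Irs2 higher. With the series term the median was 0.095. That fit had 1 higher and 2 lower at an unadjusted p under 0.05, against 3.51% and 4.06% of all genes tested. Irs2, Foxo1 and Zbtb16 had the smallest p, with log2 fold changes of 1.46, 0.46 and 0.77 (edgeR adjusted p = 0.145, 0.168 and 0.239). All of them passed without LC 15 (edgeR adjusted p = 0.0258, 0.0489 and 0.00528), in a fit that cannot tell genotype from library series. With the series term they were at 0.91, 0.35 and 0.10. For Zbtb16 the LC values were 98.0, 43.8 and 43.5 CPM in LC 15, LC 25 and LC 26, so that LC 15 stood with the CMNKO mice at 73.6 to 150.9 CPM, as it did for the ratio of Ucp2 to Ucp3.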

How the data were processed

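Left ventricles of 3 LC and 3 CMNKO mice were sequenced with 1 library per mouse (TRIzol, TruSeq). The authors aligned clean reads, to mm8 per the submitters' processing notes, and deposited raw whole-number counts per gene symbol, with no normalization. No source used here gives the aligner, counter, strand setting or annotation. The deposited group means, log2 fold changes and FDR values were not used, and 0 per-sample columns were left unused. In R 4.3.3, edgeR 4.0.16 kept 13040 of 17121 genes (filterByExpr), applied TMM factors and fitted a quasi-likelihood model on genotype. SE is the log2 fold change over the root of F, and correlations used a prior count of 2. Ratios within mice were compared by an exact permutation test in SciPy 1.17.1. The depth was 6319488 to 8752609 counts per mouse.

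The 8 genes, the lists, the tests and the naming rule were chosen with earlier results of these data known. The rule names the 8 genes, Ncor1, the genes of each list past the threshold or otherwise the 3 with the smallest p, and the 3 genes most like each called gene. Some genes of the lists are not reported here and were left out of their counts. Genes named as called by DESeq2, single markers, Ppara and Lpl were chosen after their values were seen. Alternatives were DESeq2 1.42.0, limma-voom (limma 3.58.1), other scalings, other filters (none, or 10 counts in every library), the library series as a term and each mouse left out. The fits without LC 25 and LC 26 and without CMNKO 16 and CMNKO 17 were added after seeing the data. The scripts were tested on simulated data that held no library series. There edgeR recovered 10.4% of genes changed 1.5-fold, 61.2% of those changed 2-fold and 89.4% of those changed 4-fold. False calls made up 7.76% of all calls in edgeR, 9.84% in DESeq2 and 8.62% in limma-voom. Promoters and transcripts came from RefSeq and GENCODE vM21 (GRCm38), a build other than that of the counts, and served only for sequence, length and neighbours.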

Additional observations from a re-analysis of the deposited data

How the results depend on the processing

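No paired analysis was possible because no number is common to both groups. Over the 8 genes, 1 gene higher in edgeR became 2 with DESeq2 size factors, without a filter or with at least 10 counts in every library, 3 with upper-quartile scaling, DESeq2, limma-voom or without LC 25 and LC 26, 0 with the library series as a term or without CMNKO 16 and CMNKO 17, and 0 to 3 with a mouse left out. The 1 gene lower became 0 with library totals only and with the series term, and 0 to 1 with a mouse left out. Over all genes tested, 35 higher became 59 with upper-quartile scaling, 220 with DESeq2 and 2 with the series term. That number ranged from 0 to 1589 with a mouse left out. The 44 lower became 69 with upper-quartile scaling, 147 with DESeq2 and 20 with library totals only or the series term. With a mouse left out they were 0 to 1035. Counts of 0 for all genes came without CMNKO 16 (1829 genes at an unadjusted p under 0.05 in edgeR) and without CMNKO 17 (1675). Over the lists, 0 higher became 1 with DESeq2 size factors, upper-quartile scaling, at least 10 counts or limma-voom, 3 with DESeq2, and 0 to 23 with a mouse left out. The 4 lower became 2 with library totals only, 1 with the series term and 7 with DESeq2. With a mouse left out they were 0 to 19.

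Signs turned for Them4 (0.0035 with library totals only, 0.099 with the series term and without LC 25 and LC 26, -0.22 to 0.035 with a mouse left out), Plin2 (0.013 with the series term and without LC 25 and LC 26), Pnpla2 (-0.046 under the same alternatives) and the ratio of Plin2 to Plin5 (-0.20 without LC 15 to 0.33 without LC 25, and -0.025 without CMNKO 17). Library totals only moved the median log2 fold change of all genes to 0.12. The causes were not tested. Among 35 named genes the alternatives other than those added after seeing the data kept direction and side of the threshold 412 times, lost the call 35 times, gained it 36 times and turned the sign 5 times. Without LC 15, genotype and library series cannot be told apart. Without LC 25 and LC 26, LC 15 is the only control and is taken to vary like the CMNKO mice. Only effect sizes are therefore given for that fit. The log2 fold changes were 1.17 for Pdk4, -1.41 for Acot1, 0.88 for Ucp2 and 0.99 for Ucp3. The series term gave the same values to this rounding, and none of these genes passed with it. Counts were low for Angptl4 and Pdk3, with 23 to 109 and 3 to 19 per library.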
